A study of Mus musculus with 34 samples.

Results

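Livers in which a c-Myc transgene had been turned off for 4 weeks were compared with liver tumors that expressed it, on 10 of the series' 34 arrays. The members were chosen by their sample titles, which name 3 livers off c-Myc for 4 weeks and 7 c-Myc tumors. The mice of both groups carry the c-Myc transgene. In the livers it was silenced by 4 weeks of doxycycline. The tumors are labelled as individual liver tumors with no week of doxycycline and are called end stage in the series' design. The 3 control livers, given beside them, have no transgene and had no doxycycline. Every sample was total liver or tumor RNA in Cy3, set against 1 pooled liver RNA of mixed-gender C57BL/6 mice in Cy5, so a value is log2 of sample over that reference and 0 is the level of that pool. The promoter or cell type that drives the transgene, the sex and the age of the mice are not given in the labels. All samples are labelled as biological replicates, but the deposited names of tumors 3 and 4 share a number, so that these may come from the same animal. By label the livers off c-Myc are livers and not tumors, and of these groups only they had doxycycline. Loss of the transgene, doxycycline itself and the change from tumor to liver tissue therefore cannot be told apart. In such whole tissue RNA, fewer cells of a type and less RNA per cell cannot be told apart either.

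c-Myc is a transcription factor that pairs with Max and binds DNA at E-boxes, most strongly at the palindrome CACGTG. It is known for raising genes of ribosome synthesis, translation, nucleotide synthesis and the cell cycle, and its overexpression in hepatocytes gives liver tumors in mice. Adult hepatocytes hardly divide and devote much of their mRNA to plasma proteins, detoxifying enzymes and transporters, and many of these genes are low in fetal liver and in liver tumors, where fetal genes such as Afp are high.

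Myc has 3 probes on the array, all named on chromosome 15. The sequences of the pair that was higher in tumors are shown because they carry the check of the transgene's state, and whether either lies inside the transgene's insert is not given.
A_52_P108346: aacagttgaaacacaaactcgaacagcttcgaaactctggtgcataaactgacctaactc
A_52_P278549: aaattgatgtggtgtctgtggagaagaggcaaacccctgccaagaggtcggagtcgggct

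At the first of these probes the livers off c-Myc stood at 0.26, 0.10 and 0.57 on the log2 scale, and tumors 1 to 7 at 2.50, 5.16, 5.84, 6.25, 1.71, 6.09 and 5.25. The controls stood at 0.13, 0.17 and -1.07. Every liver lay below every tumor, and tumor 5 was the lowest tumor. The Cy3 spot of tumor 1 was saturated. The difference, livers minus tumors, was -4.38 ± 0.79 (SE, limma, adjusted p = 0.000187). At the second probe the livers stood at 0.39, 0.04 and 0.52, and tumors 1 to 7 at 3.11, 2.69, 3.72, 4.66, 0.44, 4.39 and 3.95. Here tumor 5 lay inside the livers' range, and the difference was -2.96 ± 0.66 (SE, limma, adjusted p = 0.00121). The remaining Myc probe, A_51_P102096, went the other way, at 0.54, 0.35 and 0.83 in the livers and from -0.98 to 0.86 in the tumors. Its difference was 1.04 ± 0.38 (SE, limma, adjusted p = 0.0376), and 6 of the 7 tumors lay below every liver there. Tumor 5 was the tumor nearest to the livers at all 3 probes and is written below as the array labelled tumor 5.

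**Figure D1:**
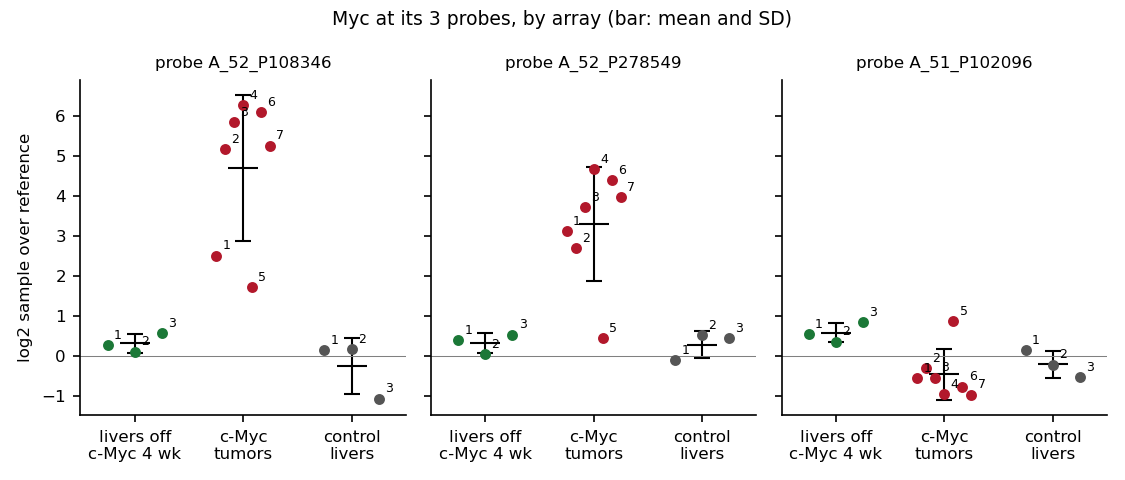
Myc at its 3 probes by array, as log2 of sample over pooled liver reference (vertical axis), for the livers off c-Myc, the c-Myc tumors and the control livers. Points carry replicate numbers and bars show the mean and SD. The livers lie near 0 at the first pair of probes, where tumor 5 is the lowest tumor, at 1.71 and 0.44.

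Technical differences run along the same line as the comparison. The 3 livers, tumor 1 and a control shared a scan day, while a different scanner read tumors 2 to 7, on other days without any liver array. Difference values within the shared day are 3 livers minus tumor 1. Apart from Myc, they are given beside results that they change by over 1.5 times and beside some others. At the first Myc probe tumor 1 stood at 2.50, the mean of all 7 tumors at 4.69 and that of the livers at 0.31. The Myc difference was therefore much smaller within the shared day. Of 7209 genes past the threshold 6988 (97.0%) kept their sign there, against 78.7% of all tested genes, and 3939 also passed the threshold there with that sign. These shares use the same livers and tumor 1, so they are not independent of the comparison. The reference channel was itself bright at some tumor genes on some tumor arrays. The Cy5 signal at the first Myc probe was 285, 363.6 and 350.1 on the livers' arrays, against 8988 on tumor 1, 6077 on tumor 4 and 4771 on tumor 6. The pooled reference should be equal on all arrays, yet its level, livers minus tumors 2 to 7, differed by an SD of 0.544 over genes, and for 14.5% of the genes past the threshold this difference enlarged the ratio's difference and was over 50% as large. For named genes it is given below wherever it was 1 or more in size, or enlarged a passing difference and was over 50% as large. Of 174 genes past the threshold that are named here, none changed sign within the shared day, 27 had a difference over 1.5 times smaller and 2 over 1.5 times larger there. The part of scanner and reference in the results was not tested. Reference spots were saturated on all 3 livers' arrays for the Mup genes, Ces3b, Alb, Cyp2e1, Cyp2f2, Fabp1 and Mbl2, and on 2 of them for B2m and Rps2. They were saturated on 3 tumor arrays for Agxt, Slc27a2 and Tat. Cy3 spots were saturated on 4 tumor arrays for Afp, Igf2, Alb, Cps1 and Rps2, on 3 for Aldoa and Igfbp1, on 2 for Odc1, and on 2 livers' arrays for Mup1 and Hamp. Ratios of these genes are not exact. In Cy3, probes well above background made up 66.1% to 71.4% on the livers' arrays and 52.0% to 71.8% on the tumors'. Liver 1 and tumor 1 lay on 1 slide, and livers 2 and 3 on another, with a control. Arrays on 1 slide had a consensus correlation of 0.472, which the main fit leaves out. Slide as a random block gave 7012 genes past the threshold. Precision is limited by how few arrays there are.

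Of 22261 genes tested, 7209 (32.4%) differed at an adjusted p under 0.05 by limma. Off c-Myc, 3421 (15.4%) were higher and 3788 (17.0%) lower. Counts for the gene lists below are to be read against these shares. At least 2-fold differences were found for 1519 genes (6.82%) higher and 1717 (7.71%) lower. All 3 livers lay above all 7 tumors for 2693 genes (12.1%) and below them for 2911 (13.1%). For 5263 of the genes past the threshold (73.0%) the livers' mean lay nearer to 0 than the tumors' mean, against 62.5% of all tested genes, and the median SD over genes was 0.129 in the livers and 0.302 in the tumors. Leaving out the array labelled tumor 5 gave 3729 higher and 4029 lower genes.

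**Figure D2:**
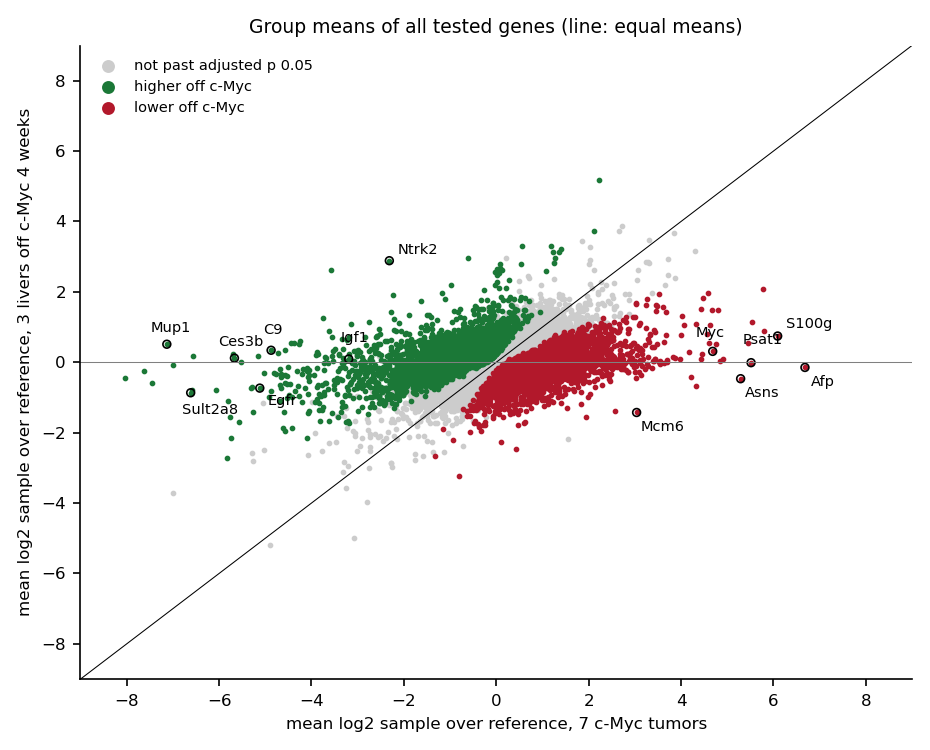
Mean log2 of sample over reference in the 3 livers off c-Myc (vertical axis) against the 7 c-Myc tumors (horizontal axis) for all tested genes, coloured by direction past adjusted p 0.05. For 73.0% of the coloured genes the livers' mean is nearer to 0 than the tumors' mean. Mup1 averaged 0.51 in livers and -7.13 in tumors, and Afp -0.15 and 6.68.

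The 10 largest rises off c-Myc among genes whose groups did not overlap were led by Mup genes. Mup1, one of the major urinary proteins that male mouse liver secretes, stood at 0.80, 0.47 and 0.28 in the livers and from -9.88 to -5.51 with a median of -6.40 in the tumors. The livers' ratios lay near 0 and every tumor's far below, a difference of 7.64 ± 1.49 (SE) with adjusted p = 0.000378 by limma, and 6.16 within the shared day. For Mup1, spots were saturated in both channels on livers' arrays, so the ratios do not fix the livers' level against the reference. Mup10, Mup5 and Mup6 differed by 7.57, 7.40 and 5.81, and Mup6 was well above background in only 1 of the 7 tumors. The Mup genes are near-identical copies that probes may not separate, their reference spots were saturated on all 3 livers' arrays, so these ratios are not exact, and the reference for Mup6 and Mup10 was 3.91 and 1.5 brighter there. Ces3b stood at 0.32, -0.23 and 0.28 in the 3 livers and from -8.73 to -3.08 with a median of -5.05 in the 7 tumors, and this carboxylesterase, which hydrolyses esters and lipids, differed by 5.79 ± 1.11 (SE), with a saturated reference on the livers' arrays. Sult2a8 stood at -0.58, -1.35 and -0.67 in the 3 livers and from -7.57 to -4.57 with a median of -6.87 in the 7 tumors. This sulfotransferase acts on bile acids. Its groups kept apart and differed by 5.75 ± 0.81 (SE), and by 3.70 within the shared day. Ugt2b1, a glucuronosyltransferase, and Slc22a28, an organic anion transporter, differed by 5.54 and 5.35. C9, the last component of the complement pore, stood at 0.68, 0.02 and 0.32 in the livers and from -6.44 to -3.21 with a median of -5.04 in the tumors. Its difference was 5.22 ± 0.63 (SE), and 4.37 within the shared day. Ntrk2, a neurotrophin receptor, stood at 2.94, 3.17 and 2.55 in the livers and from -3.05 to -0.52 with a median of -2.81 in the tumors. Its livers lay above the reference and its tumors below it. The controls averaged 3.65 ± 0.14 (SD).

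The 10 largest falls were led by Afp and Asns. Afp, alpha-fetoprotein, stood at -0.54, -0.32 and 0.42 in the livers and from 3.07 to 8.87 with a median of 6.36 in the tumors. The livers lay near the reference and every tumor above it, 4 of the tumors with a saturated Cy3 spot. The difference was -6.83 ± 0.88 (SE), with adjusted p = 6.63e-06 by limma. Tumor 1 was the lowest tumor, so the difference within the shared day was -3.21, and the reference was -1.49 on the livers' arrays relative to tumors 2 to 7 and -4.22 relative to tumor 1. Asns, asparagine synthetase, stood at -1.03, -0.68 and 0.31 in the livers and from 4.45 to 5.95 with a median of 5.37 in the tumors. Psat1, the second enzyme of serine synthesis, stood at 0.04, -0.16 and 0.09 in the livers and from 4.02 to 6.64 with a median of 5.72 in the tumors. All tumors lay above all livers for both genes, and the differences were -5.76 ± 0.81 (SE) and -5.53 ± 0.72 (SE). S100g, a calcium-binding protein of intestine known as calbindin-D9k, stood at 0.03, 1.65 and 0.56 in the livers and from 4.60 to 7.33 with a median of 5.84 in the tumors. Liver 2 was the highest of the 3 for S100g. Akr1b7, an aldose reductase relative, Acss1, the mitochondrial acetyl-CoA synthetase, Scd2, a stearoyl-CoA desaturase of non-hepatic tissues, and Mogat2, an intestinal acyltransferase of triglyceride synthesis, differed by -4.99, -4.93, -4.90 and -4.83. The reference on the livers' arrays relative to tumors 2 to 7 was -1.29 for Asns, -1.43 for Akr1b7 and -1.07 for Mogat2. Lypd8, known from colon epithelium, differed by -4.80 and was not well above background on any liver array. Slc25a4, the ADP/ATP carrier of heart and muscle, differed by -4.62, but its reference was 2.54 brighter on the livers' arrays and its difference within the shared day was -2.27.

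**Figure D3:**
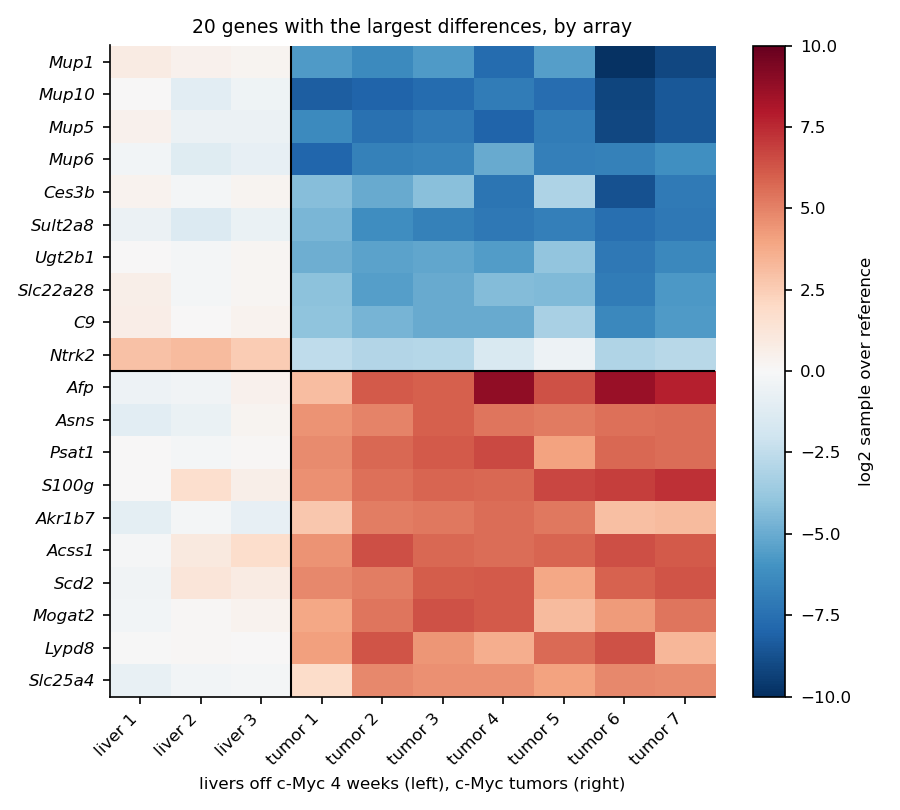
Log2 of sample over reference for the 10 largest rises (upper rows) and the 10 largest falls (lower rows) off c-Myc, by array, with the 3 livers left of the 7 tumors. Livers lie between -1.35 and 1.76 in every row but Ntrk2, where they lie between 2.55 and 3.17.

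Genes of ribosome synthesis were lower off c-Myc. Of 30 ribosome biogenesis genes 22 fell and 0 rose, where 17.0% of all genes fell, and the list's median difference was -1.30, with -1.56 within the shared day and 0.013 over all genes. Npm1 stood at -0.76, -0.48 and -0.38 in the 3 livers and from 1.51 to 2.95 with a median of 1.63 in the 7 tumors. Npm1, nucleophosmin, carries ribosomal particles out of the nucleolus, and its difference was -2.45 ± 0.39 (SE), while its reference was 2.03 brighter on the livers' arrays and its difference within the shared day -2.08. Polr1c, a subunit of RNA polymerases I and III, differed by -1.43 ± 0.16 (SE) with adjusted p = 1.75e-06. Nip7 and Nhp2, which act in pre-rRNA processing and in guiding RNA modification, differed by -2.13 and -2.07. Ubtf, which recruits RNA polymerase I to ribosomal DNA, did not pass (0.05, adjusted p = 0.909). Of 83 cytosolic ribosomal protein genes 53 fell and none rose, with a median of -1.02 and -0.65 within the shared day. Rpl31 stood at 0.07, 0.05 and 0.27 in the 3 livers and from 2.64 to 3.62 with a median of 2.83 in the 7 tumors, with every tumor above every liver and a difference of -2.80 ± 0.33 (SE). Rpsa, the ribosomal protein that doubles as laminin receptor, differed by -2.82, and Rps2 by 0.01 (adjusted p = 0.979), where 4 tumors had saturated spots and the mean of its probes gave -0.75. Many ribosomal protein genes have processed pseudogenes, so their probes may read more than 1 transcript.

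Of 17 initiation and elongation factor genes 13 fell and none rose, with a median of -0.88. Eif2s1, the alpha subunit of the initiation factor that brings the first tRNA, differed by -1.65 ± 0.27 (SE), and Eif4e, the cap-binding protein, by -0.96 ± 0.20 (SE), and -1.59 within the shared day. Eif2s1 stood at -0.69, -0.93 and -0.29 in the livers and from 0.83 to 1.31 with a median of 0.97 in the 6 tumors with a value, and the groups kept apart. Eef1g and Eef2, elongation factors, differed by -1.61 and -1.41. Of 20 cytosolic aminoacyl-tRNA synthetases 10 fell, led by Qars (-1.28, adjusted p = 7.02e-06) and Gars (-1.93). The 2 other probes of Qars gave -1.39 and 0.24. The single riser was Aars, chosen for mention after its value was seen, at 1.20 with adjusted p = 0.00784 by limma. Its reference was -1.42 on the livers' arrays relative to tumors 2 to 7, and the sample channel alone gave -0.081. The 3 other probes of Aars gave 0.05 to 0.19. All 8 genes of the chaperonin TRiC, which folds actin and tubulin, fell, with a median of -1.71, and Cct3 differed by -2.27 ± 0.33 (SE).

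Of 22 genes of purine and pyrimidine synthesis 16 fell and none rose, with a median of -1.41 and -1.97 within the shared day. Impdh2, the rate-limiting enzyme of guanine nucleotide synthesis, stood at -0.62, -0.74 and -0.21 in the livers and from 0.48 to 2.29 with a median of 1.64 in the tumors, a difference of -2.16 ± 0.33 (SE). Adsl, which acts late in purine synthesis, Nme1, a nucleoside diphosphate kinase, and Dhodh, the mitochondrial step of pyrimidine synthesis, differed by -2.47, -2.04 and -1.99. Of 7 polyamine genes 4 fell. Odc1, ornithine decarboxylase, the first enzyme of the pathway and a textbook c-Myc target, stood at -1.49, -0.99 and -0.96 in the livers and from -0.15 to 2.23 with a median of 1.61 in the tumors. The lowest tumor was the array labelled tumor 5, still above every liver, and the difference was -2.54 ± 0.46 (SE), with -2.96 within the shared day.

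The E-box CACGTG was counted in RefSeq promoters, 250 bases before to 50 after the start, on GRCm38.p6, where the palindrome reads the same on both strands. It was in 12.9% of 2693 promoters of genes lower off c-Myc, 9.85% of 2163 of genes higher off c-Myc and 10.4% of the 13787 tested genes with a promoter entry. By list it was in 6 of 12 promoters of translation factor genes, 5 of 19 of nucleotide synthesis genes and 5 of 25 of ribosome biogenesis genes. Among the members that fell it was in 5 of 9, 4 of 15 and 2 of 18 in the same order. It was in 6 of 62 promoters of cytosolic ribosomal protein genes, 9.68%, and in 3 of 20 of replication genes. It was in 1 of 21 promoters of mitotic genes, and in none of 26 promoters of cytochrome P450 genes and none of 12 of complement genes. A match is only these letters in this window. The windows below, 30 bases each with the E-box in capitals, belong to genes that fell and show what its flanks look like.
Eif4e, chr3:138527192-138527221, plus strand: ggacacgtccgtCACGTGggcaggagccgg
Eef2, chr10:81176576-81176605, plus strand: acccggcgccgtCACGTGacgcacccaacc
Impdh2, chr9:108560314-108560343, plus strand: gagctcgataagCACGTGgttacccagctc
Nme1, chr11:93968037-93968066, minus strand: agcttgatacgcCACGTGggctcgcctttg
Their distances from the start to the E-box's first base were 64, 43, 110 and 29 bases upstream, in that order.

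Genes of cell division were lower off c-Myc. Of 26 genes of mitosis 24 fell and none rose, with a median of -2.67, and of 26 replication genes 24 fell and 1 rose, with a median of -1.77. Mki67, the proliferation antigen, stood at -0.08, 0.15 and 0.14 in the livers and from 0.85 to 4.46 with a median of 4.33 in the tumors. All 3 livers lay near the reference and below every tumor, and the lowest tumor was the array labelled tumor 5. The difference was -3.63 ± 0.73 (SE), and -4.06 within the shared day. Mcm6 stood at -1.82, -1.25 and -1.20 in the 3 livers and from 0.12 to 4.47 with a median of 3.48 in the 7 tumors, and this subunit of the replicative helicase differed by -4.46 ± 0.81 (SE), below the reference in every liver. Cdk1, the mitotic kinase, Prc1 and Ect2, which act in cytokinesis, and Aurka, a spindle kinase, differed by -2.19, -3.02, -3.01 and -3.14. The reference for Aurka was -1.26 on the livers' arrays relative to tumors 2 to 7. Mcm10, which helps load DNA polymerase, rose by 2.29. Mcm10 stood at 0.33, -0.03 and 0.33 in the 3 livers and from -3.57 to -1.42 with a median of -1.73 in the 7 tumors, so its probe ran against the other replication genes in every tumor. The array labelled tumor 5 had the lowest median of all tumors over the mitotic genes, 0.27, where the other 6 tumors lay between 2.43 and 3.25 and the livers between -0.13 and 0.01.

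Among G1 regulators the directions divided. Of 12 genes 6 fell and 2 rose. Ccne1 and Ccne2, the E cyclins that start S phase, differed by -2.20 ± 0.48 (SE) and -1.45 ± 0.31 (SE), the phosphatase Cdc25a by -0.92 and the transcription factor E2f1 by -1.12. The reference for Ccne1 was -1.24 on the livers' arrays. The risers were D cyclins. Ccnd1, which answers growth factor signals, stood at 0.37, 0.35 and -0.32 in the livers and from -3.22 to -0.88 with a median of -2.10 in the tumors, a rise of 2.28 ± 0.59 (SE), and Ccnd2 rose by 0.89, with a reference of -0.62 on the livers' arrays relative to tumors 2 to 7. Of 9 genes of CDK inhibitors and of the retinoblastoma family 5 fell and 1 rose off c-Myc. Cdkn1a stood at 0.58, 0.28 and 0.87 in the 3 livers and from 2.26 to 4.37 with a median of 3.30 in the 7 tumors. Cdkn1a, p21, a p53 target that halts the cycle, differed by -2.73 ± 0.48 (SE), and by -1.68 within the shared day, where it did not pass. For Cdkn1a each liver lay above the controls' mean of -0.12. Of 20 genes of p53 and its targets 10 fell and none rose. Bax, which opens mitochondria in apoptosis, Mdm2, which degrades p53, and Ccng1 differed by -1.25, -1.08 and -1.84. Within the shared day Mdm2 and Ccng1 were at -0.71 and -1.17 and did not pass, and the reference for Mdm2 was 0.68 brighter on the livers' arrays than on tumors 2 to 7. Trp53 itself differed by 0.35 (adjusted p = 0.102).

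**Figure D4:**
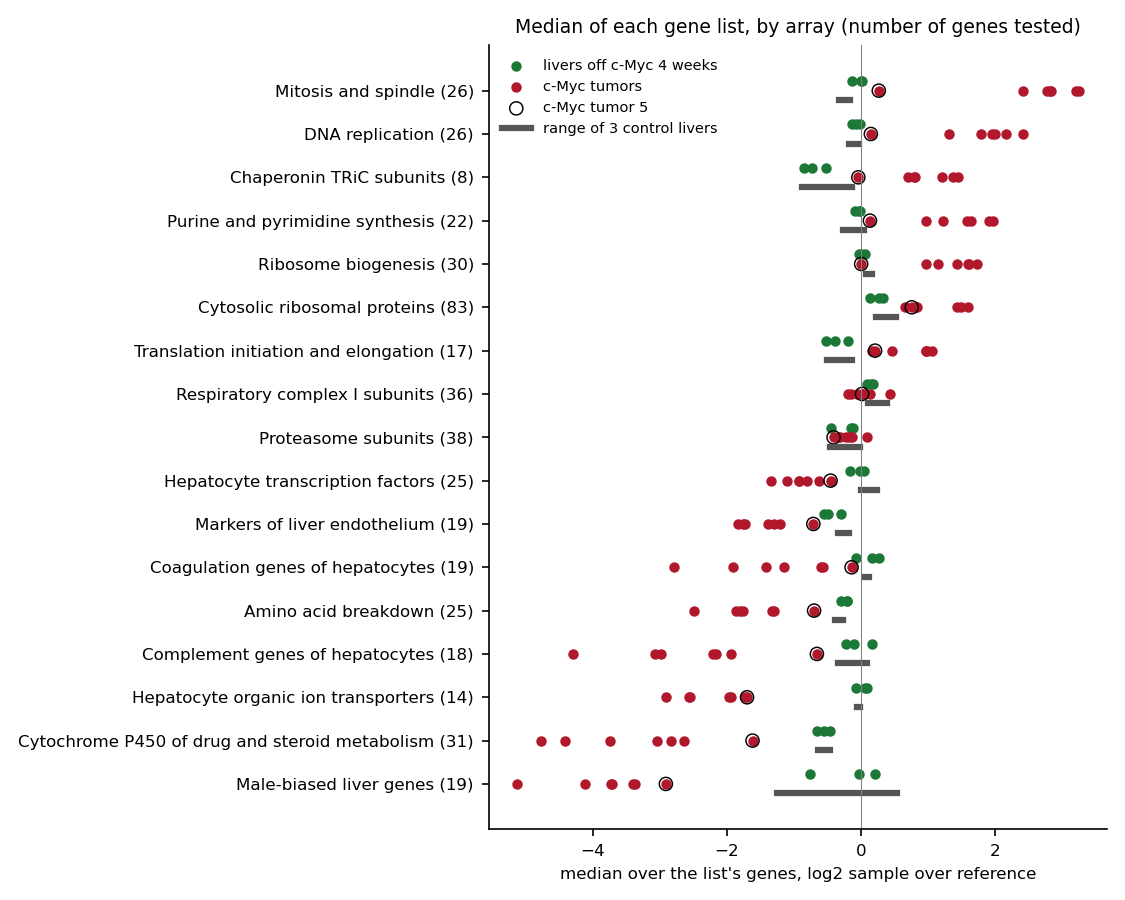
Median log2 of sample over reference over the genes of each list (horizontal axis), for each liver off c-Myc, each c-Myc tumor and the range of the 3 control livers, with the number of genes tested in brackets. Livers and controls lie close together in most lists. In the upper 7 lists the tumors other than tumor 5 lie to the right of all livers. Tumor 5 lies within the livers' range for ribosome biogenesis, and in the lowest 8 lists all tumors lie to the left of all livers.

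In the Myc network, of 13 genes, Myc included, 3 fell and 2 rose, where 17.0% of all genes fell and 15.4% rose. Mxd3, a Max partner expressed in dividing cells and well above background in only 1 liver, fell by 0.88. Mlxipl, the carbohydrate response factor ChREBP, and its partner Mlx rose by 1.96 and 0.71. Mlxipl stood at -0.27, 0.06 and -0.18 in the 3 livers and from -2.49 to -1.48 with a median of -2.16 in the 7 tumors, with every liver above every tumor. Max differed by -0.45 (adjusted p = 0.0991).

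Of 17 fetal and tumor genes 10 fell and 1 rose. Igf2, a fetal growth factor, and H19, the imprinted RNA beside it, differed by -3.05 ± 0.46 (SE) and -3.09 ± 0.48 (SE). Igf2 stood at 0.0047, 0.16 and 0.03 in the 3 livers and from 1.32 to 4.23 with a median of 3.14 in the 7 tumors. The reference differed by -5.76 for Igf2 and -5.24 for H19, livers' arrays minus tumors 2 to 7, 4 tumors had a saturated Cy3 spot for Igf2, and within the shared day the differences were -1.25 and -1.77, with the reference at -7.40 and -6.63 relative to tumor 1. Plagl1, an imprinted zinc finger gene, rose by 1.35, but a further probe of it gave -0.06. Bex2, of small adapter proteins, and Igf2bp3, a fetal RNA-binding protein, differed by -3.76 and -3.23, with a reference of -1.61 for Bex2. Gpc3, glypican-3, a marker of human liver cancer, did not pass, at 1.53, 1.81 and 1.93 in the livers and from -0.12 to 5.59 with a median of 2.47 in the tumors (adjusted p = 0.38).

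Of 16 genes of the growth hormone and insulin-like growth factor axis 9 rose and 2 fell, Igf2 and Igfbp1. Igf1 stood at 0.11, 0.34 and -0.16 in the 3 livers and from -4.74 to -1.14 with a median of -3.85 in the 7 tumors. Igf1, the hormone that adult liver releases on growth hormone, differed by 3.29 ± 0.53 (SE), every liver above every tumor, and 2.68 within the shared day. Ghr, the growth hormone receptor, and Igfals, which holds Igf1 in blood, rose by 2.35 and 2.07. Igfbp1 was at -0.75, -1.77 and 1.39 in the livers and from 1.42 to 3.19 with a median of 2.33 in the tumors (adjusted p = 0.0284).

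Of 20 genes of growth factor receptors and ligands 9 rose, none fell and 11 did not pass. Egfr stood at -0.72, -1.10 and -0.38 in the 3 livers and from -6.93 to -3.85 with a median of -4.49 in the 7 tumors. Egfr, the receptor for epidermal growth factor and TGFα, differed by 4.38 ± 0.70 (SE), and 3.64 within the shared day. Vegfa, the endothelial growth factor, and Hgf, the hepatocyte growth factor, rose by 1.75 and 1.54. Of 12 genes that report ERK signalling 6 rose, with Phlda1 at 3.85 ± 0.55 (SE) and Spred1 at 1.39, and none fell. Of 17 immediate early genes 4 rose, among them Zfp36 (1.44), which destabilises cytokine mRNA, and Egr1 (2.39).

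Many enzymes have a form that adult liver uses and a counterpart in other tissues. Of the 16 genes in 8 such pairs 7 rose and 6 fell. Hk2, the hexokinase of muscle and many tumors, fell by 2.16. Hk2 stood at -0.82, -0.27 and -0.24 in the 3 livers and from 0.20 to 2.58 with a median of 1.74 in the 7 tumors, with a reference of -1.02 on the livers' arrays relative to tumors 2 to 7. Aldoa, the muscle aldolase, differed by -1.56. Pklr, liver pyruvate kinase, rose by 1.17 ± 0.35 (SE), and Pkm stood at 0.15, 0.61 and 0.78 in the 3 livers and from 0.71 to 4.50 with a median of 3.17 in the 7 tumors, a fall of 2.23 in which the array labelled tumor 5 lay within the livers' range. Slc2a2, the liver glucose transporter, rose by 2.09, and by 0.65 within the shared day, and Slc2a1 differed by -0.60 (adjusted p = 0.083). Gls2, liver glutaminase, rose by 1.39, and by 0.52 within the shared day. Mat1a and Mat2a, liver and non-hepatic methionine adenosyltransferases, differed by 1.14 and -1.02. The widest pair was Scd1, which rose by 2.12 ± 0.62 (SE), with Scd2, at -0.35, 1.22 and 0.80 in the livers and from 3.85 to 6.33 with a median of 5.88 in the tumors. Acacb and Acaca, acetyl-CoA carboxylases, did not pass at 1.08 and -0.07, with a reference of -1.19 for Acacb, and 2 other probes of Acaca passed in the opposite direction.

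**Figure D5:**
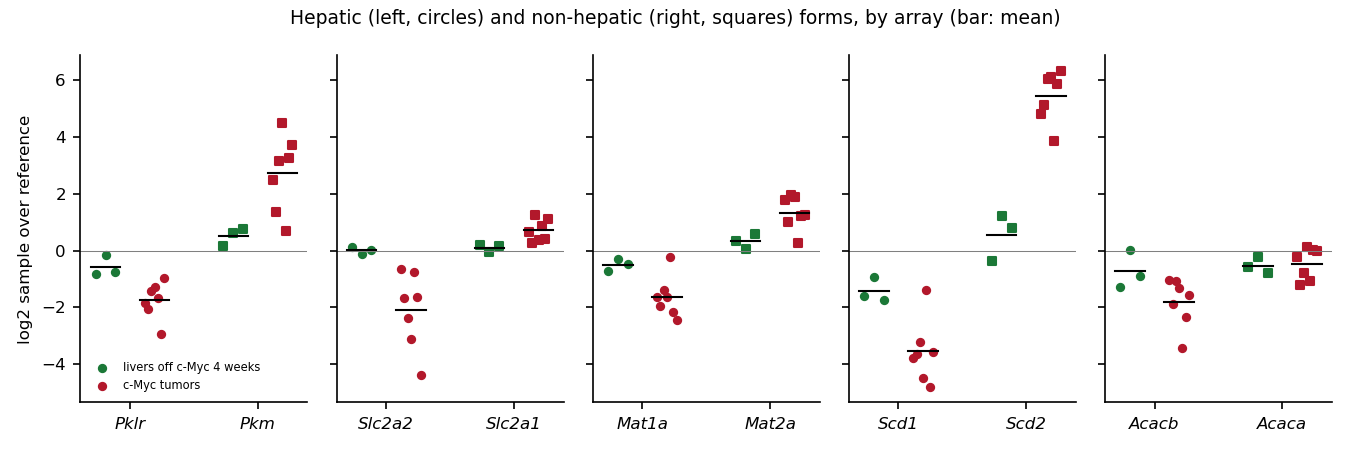
Log2 of sample over reference by array for 5 of the pairs of isozymes, the hepatic form left (circles) and the non-hepatic form right (squares), with livers off c-Myc in green left of c-Myc tumors in red and bars at the means. Scd1 averages -1.43 in livers and -3.55 in tumors, and Scd2 0.56 in livers and 5.45 in tumors.

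Of 16 glycolytic genes of non-hepatic type 10 fell, and Pfkm, the muscle phosphofructokinase, rose by 1.63 ± 0.21 (SE). Pgk1, Eno1 and the lactate exporter Slc16a3 differed by -1.78, -2.02 and -2.41. Of 16 hepatic glucose genes 7 rose and 1 fell, with Pfkl the gene that fell (-1.40, and -0.63 within the shared day), and Ugp2, which makes UDP-glucose for glycogen, rose by 1.35.

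Serine and one-carbon synthesis fell at its entry enzymes. Phgdh, the first step from glycolysis, Psat1 and Psph, the last step, differed by -4.39 ± 0.70 (SE), -5.53 and -2.62. Phgdh stood at 0.71, 1.47 and 1.21 in the 3 livers and from 3.54 to 6.60 with a median of 5.94 in the 7 tumors. Its reference was -2.29 on the livers' arrays relative to tumors 2 to 7, with -4.58 relative to tumor 1, and its difference within the shared day -2.41. Mthfd1l, the mitochondrial folate enzyme, differed by -3.22, and of the list's 15 genes 7 fell and 3 rose. The risers are enzymes of choline breakdown and folate metabolism, Sardh (1.83), Aldh1l1 (1.77) and Dmgdh (0.85). Among 20 ATF4 targets and amino acid transporters 6 fell, with Asns in front, followed by the proline enzyme Pycr1 (-1.91, with no liver well above background) and the cationic amino acid transporter Slc7a1 (-2.24). Atf4 (0.16, adjusted p = 0.617), Ddit3 (0.09) and Trib3 (0.42) did not pass, and the list's median was 0.10, with 0.28 within the shared day.

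Of 25 genes of amino acid breakdown 15 rose and none fell, with a median of 1.36. Agxt, which clears glyoxylate, stood at 0.36, 0.12 and 0.20 in the livers and from -5.01 to -2.15 with a median of -4.32 in the tumors, a rise of 4.08 ± 0.61 (SE). Tat and Fah, of tyrosine breakdown, and Kmo, of tryptophan breakdown, rose by 2.80, 1.11 and 1.57. Of 9 urea cycle genes 4 rose, with Otc at 2.69 ± 0.67 (SE), and Cps1, the first enzyme, differed by -0.22 (adjusted p = 0.828), a value that saturated Cy3 spots on 4 tumor arrays make inexact.

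Of 18 fatty acid synthesis genes 7 rose and 1 fell. The elongase Elovl5 rose by 2.16 ± 0.35 (SE), the elongase Elovl3 by 4.79 and the lipogenic regulator Thrsp by 1.61. Elovl3 stood at 1.46, -0.32 and 0.42 in the 3 livers and from -5.27 to -3.65 with a median of -4.38 in the 7 tumors, and its values set all livers above all tumors. Of 22 oxidation and ketogenesis genes 8 rose and 1 fell, with Ppara, the fasting regulator, at 1.79, and Slc27a2, which takes up and activates fatty acids, at 1.86. Cholesterol synthesis had 3 of 19 genes higher and 2 lower, no clear excess over the share of all genes in each direction. Sc5d, a late sterol desaturase, rose by 2.89. Fabp1, the liver fatty acid binding protein, rose by 3.01 ± 0.80 (SE) and Fabp4, its adipocyte relative, differed by -1.92, and -1.25 within the shared day. Of 18 bile acid genes 11 rose. Baat, which conjugates bile acids, rose by 2.95, and Cyp7b1 by 4.71 ± 1.03 (SE). Cyp39a1 ran the other way at -2.94, -2.39 and -2.07 in the livers and from -1.07 to 1.92 with a median of 0.52 in the tumors, below the reference in livers and controls (-2.02) alike.

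Of 31 cytochrome P450 genes 18 rose and none fell, where 15.4% of all genes rose, with a median of 2.56 and 2.33 within the shared day. Cyp4f14 stood at -0.36, -0.20 and -0.09 in the 3 livers and from -4.87 to -2.35 with a median of -4.36 in the 7 tumors. Cyp4f14, a fatty acid and leukotriene hydroxylase, had the smallest p of the list at 3.83 ± 0.45 (SE) and 3.01e-06 after adjustment. Cyp26a1, which clears retinoic acid, rose by 5.00 ± 0.70 (SE), and Cyp1a2 and Cyp2c54, of drug oxidation, by 3.74 and 3.89. Of 31 conjugating enzymes 16 rose, with Sult5a1 at 3.87 ± 0.42 (SE) and Sult1b1 at 2.76. Members of the P450, sulfotransferase and glucuronosyltransferase families are close copies, and their probes may read a relative. Of 14 organic ion transporters 9 rose. Slco1a1, an organic anion importer of male liver, stood at 0.89, 0.09 and 0.71 in the livers and from -6.09 to -3.40 with a median of -4.28 in the tumors, a rise of 4.95 ± 0.61 (SE), and Slc22a7 and Slco2b1 rose by 5.01 and 2.95, Slc22a7 by 2.29 within the shared day. Abcc3, which exports conjugates into blood, rose by 2.61, but its reference was -1.32 on the livers' arrays relative to tumors 2 to 7. Within the shared day its rise was 3.02, with the reference at 0.18.

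Of 18 complement genes 15 rose, with a median of 1.74. C8g, of the pore, and Mbl1 and Mbl2, mannose-binding lectins, rose by 3.90, 2.93 and 3.91. Of 19 coagulation genes 11 rose, with F12, F5 and Hgfac at 2.28, 2.43 and 1.59, where F12 and Hgfac were at 1.37 and 1.01 within the shared day, and of 20 plasma protein genes 12. Apoc3 stood at 0.68, 0.97 and 0.32 in the 3 livers and from -4.88 to -2.07 with a median of -3.26 in the 7 tumors, and this apolipoprotein of triglyceride-rich particles rose by 4.00 ± 0.51 (SE). Fga, a fibrinogen chain (-0.34, adjusted p = 0.667), and Apob (0.69, adjusted p = 0.166) did not pass. Acute phase genes had no common direction, with 3 higher and 3 lower of 20, near the share of all genes in each direction. Hamp, hepcidin, the iron hormone, rose by 4.50 ± 0.78 (SE), and Saa3, a serum amyloid of inflamed tissue, differed by -2.96 ± 0.58 (SE), but by -0.49 within the shared day.

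Of 25 transcription factor genes of hepatocytes 15 rose, none fell, and the median was 0.82. Onecut2 stood at -0.01, 0.04 and -0.50 in the 3 livers and from -6.37 to -2.78 with a median of -3.86 in the 7 tumors. Onecut2 and Onecut1, homeodomain factors of hepatocyte and bile duct fate, rose by 3.95 ± 0.50 (SE) and 2.16 ± 0.31 (SE), and Klf15, a regulator of amino acid use, by 1.79. Hnf4a, the central factor of hepatocyte identity, rose by 0.82, chosen for mention after its value was seen, but its reference was 1.15 brighter on the livers' arrays. Foxa1 and Foxa3 differed by 0.13 and 0.07, neither past the threshold, with a reference of 1.84 for Foxa1.

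Of 19 male-biased liver genes 15 rose and none fell, and of 19 female-biased genes 2 rose and none fell. The male-biased genes had array medians of 0.22, -0.75 and -0.02 in the livers, and from -5.14 to -2.91 in the tumors. Array medians of the female-biased genes were -1.21, -0.31 and -1.68 in the livers, and from -4.77 to -1.14 in the tumors. Every tumor lay below every liver for the male list, while for the female list tumor 5 lay above 2 of the 3 livers. Liver 2 was the lowest liver for the male list and the highest for the female list. Sex is not given in the labels. Xist, the RNA that silences the second X in females, stood at -5.03, 1.62 and -5.14 in the livers, and from -6.69 to 0.05 in the tumors, so the livers were mixed. A fit with a score of Xist and Y-linked genes as a covariate gave 3525 higher and 3840 lower genes. In the zones of the liver lobule, 5 of 17 pericentral and 6 of 14 periportal genes rose, and 1 periportal gene fell. The tumors were divided over the pericentral genes, with array medians of 0.62 and 0.51 in tumors 3 and 4, -0.41 in tumor 7 and -2.62 or lower in the other tumors. The livers lay between -0.48 and -0.30. Cyp2e1, of pericentral hepatocytes, and Cyp2f2, of periportal ones, rose by 4.07 ± 0.85 (SE) and 4.49 ± 0.92 (SE), with saturated references on all 3 livers' arrays. Wnt target genes of the pericentral list, Axin2 (-0.04) and Lgr5 (0.91), did not pass, and Axin2 was at 2.31 within the shared day and its reference 1.45 brighter on the livers' arrays than on tumors 2 to 7.

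Of 20 clock genes 9 rose and 1 fell. Dbp stood at -0.04, 0.40 and 0.26 in the 3 livers and from -3.71 to -2.71 with a median of -3.53 in the 7 tumors. Dbp, a clock output factor, differed by 3.62 ± 0.61 (SE), and Arntl, the BMAL1 gene that drives it and peaks in the opposite phase, was at -0.50, -1.09 and -0.54 in the livers and from 0.38 to 2.20 with a median of 1.15 in the tumors, a difference of -1.83 ± 0.37 (SE). Bhlhe40 and Tef rose by 1.77 and 2.14. The time of day at which tissue was taken is not given in the labels, so time of collection and group cannot be told apart for these genes.

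Of 78 mitochondrial ribosomal protein genes 34 fell and 3 rose, with Mrps23 at -1.52 ± 0.25 (SE) and Mrpl3 at -1.78. Complex I genes had 4 higher and 4 lower of 36, and other respiratory chain and ATP synthase genes 4 and 8 of 43, with Sdhd, a subunit of succinate dehydrogenase, at -1.83 ± 0.23 (SE). Of 38 proteasome genes 3 rose and 6 fell, below the share of all genes in each direction. Of 19 ER folding genes 6 fell and 2 rose, with the lectin chaperone Canx at -0.84 and Hspa5, BiP, at -0.64. Within the shared day Hspa5 was at -0.24, and its reference was 0.36 brighter on the livers' arrays than on tumors 2 to 7. NRF2 and pentose phosphate genes had 3 higher and 3 lower of 16, near the share of all genes in each direction. Gclc, of glutathione synthesis, was up by 2.04 and G6pdx, of the pentose phosphate pathway, at -1.49. Hypoxia genes had 2 higher and 3 lower of 15, also near those shares. Car12 differed by -2.63, was not well above background in any liver, and tumor 5 lay within the livers' range. Alas1, the first enzyme of heme synthesis, rose by 2.71 ± 0.50 (SE), with 4 of 12 heme genes higher and 2 lower.

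Of 19 endothelial markers 10 rose and none fell, and array medians ran from -0.54 to -0.30 in the livers and -1.83 to -0.71 in the tumors. Clec4g stood at -0.69, -0.60 and -1.15 in the 3 livers and from -6.72 to -2.73 with a median of -4.29 in the 7 tumors, with livers apart from tumors. Clec4g, Oit3 and Dnase1l3, of sinusoidal endothelium, rose by 3.54 ± 0.67 (SE), 3.19 and 2.54. A further probe of Clec4g gave only 0.29, and a further probe of Oit3 0.79. Pecam1 and Cdh5, of all endothelium, differed by -0.36 and 0.33 and did not pass. Macrophage markers divided, with 5 of 15 higher and 5 lower. Clec4f stood at -0.17, -0.15 and -0.70 in the 3 livers and from -6.68 to -2.67 with a median of -3.74 in the 7 tumors. Clec4f, of Kupffer cells, rose by 3.87 ± 0.67 (SE), and by 2.43 within the shared day, where it did not pass, with Vsig4 at 1.44, while the general macrophage genes C1qb, Cd68 and Adgre1 were lower, at -1.36, -1.22 and -1.35. Within the shared day these 3 differed by -0.25, -0.60 and -0.25. A further probe of Adgre1 gave only -0.04.

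Stellate cell and fibroblast markers had 8 higher and 2 lower of 20. Reln and Lrat, of quiescent stellate cells, rose by 2.87 ± 0.50 (SE) and 2.31, and Ngfr by 2.13. Col1a1 did not pass, at 0.44, 2.15 and 1.70 in the livers and from 0.17 to 4.15 with a median of 1.62 in the tumors, with controls at -0.75 ± 0.38 (SD). Of 15 markers of T and NK cells 1 was higher and 2 lower, and none of 9 B cell markers passed, below the share of all genes in each direction. Of 10 neutrophil markers only Mpo passed, lower at -1.85, and -0.60 within the shared day, and S100a8 was at 2.22, 1.59 and 3.35 in the livers and from 0.63 to 5.42 with a median of 4.32 in the tumors (adjusted p = 0.214), with tumor 1 the lowest. None of 7 erythroid markers passed. Of 11 biliary markers 3 rose, among them Krt7 (1.60, and 1.02 within the shared day) and Sox9 (1.34). Hepatocyte markers had 5 of 9 higher and none lower, with Alb, albumin, at 0.43, 0.18 and 0.14 in the livers and from -4.40 to -0.14 with a median of -0.28 in the tumors. Alb spots were saturated in Cy3 on 4 tumor arrays and in the reference on all 3 livers' arrays and 5 tumor arrays, so its ratios are not exact, and the difference within the shared day was 0.51. These signals show albumin RNA in both groups. The part of cell makeup in the other results was not tested.

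Antigen presentation had 6 of 15 genes higher and none lower. B2m, the shared chain of class I molecules, stood at 0.78, 0.73 and 0.28 in the livers and from -3.23 to -0.56 with a median of -1.57 in the tumors, a rise of 2.30 ± 0.43 (SE). Within the shared day it was 1.24 and did not pass. Interferon response genes had none of 20 higher and 3 lower, no more than the share of all genes in each direction (15.4% and 17.0%). Cxcl10, a chemokine, and Usp18 differed by -2.34 ± 0.42 (SE) and -2.12. Among 12 S100 genes S100g fell and S100a1 and S100a13 rose, by 1.48 and 1.01, the second by 1.53 within the shared day.

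Mean correlations of their profiles over genes with the control livers were 0.709, 0.665 and 0.578 for livers 1 to 3, and with the tumors 0.262, 0.307 and 0.414. These are over genes, which are not independent replicates. All arrays share the reference by label, but its signals differed between arrays. The mean correlation of these signals with those on the livers' arrays was 0.935 to 0.971 for tumors 2 to 7. For tumor 1 this was 0.994, and for the controls 0.986 to 0.997. The part of scanner and reference in the profile correlations was not tested. Each tumor's mean correlation with the other tumors was 0.672 to 0.809, the lowest being that of the array labelled tumor 5. The 17 immediate early genes had array medians from 0.34 to 1.15 in the livers, -0.25 to 0.50 in the tumors and -0.32 to 0.0041 in the controls. Spink1, a fetal and tumor gene, averaged 1.98 ± 1.29 in the livers, 4.58 ± 1.17 in the tumors and -0.0023 ± 0.02 (SD) in the controls, and Lcn2, lipocalin-2, averaged 1.46 ± 0.71, 3.45 ± 0.84 and 0.38 ± 0.81 (SD) in the same order, with livers at -0.61 from tumor 1 within the shared day. The livers' difference from the controls was not tested here.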

How the data were processed

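RNA was measured on 34 Agilent 2-colour arrays of 10 groups. The deposited scanner files hold intensity values per spot and log10 ratios of Cy5 over Cy3, made with Feature Extraction 9.1.3.1 on 28 arrays and 10.7.3.1 on 6 tumor arrays, per the file headers. The deposited series matrix holds log2 values, tested as an alternative with the sign turned, and its column medians ran from -0.37 to 0.23 over the 10 arrays. Its centring stays unknown. The submitters' processing notes name limma. For the genome build, the sources used here give none.

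Mean signals were background-corrected with normexp (offset 50) and normalized within arrays by loess in limma 3.58.1 and R 4.3.3, and the log2 ratio was taken as Cy3 over Cy5. Normexp was fitted on unflagged spots, because a few spots with very bright local background raised the floor when all were used. The scanner's own log ratios served as an alternative. Control spots were left out. Probes whose Cy3 signal was well above background on 3 or more arrays were used, which left 32771 of 41174. The brightest probe stood for a gene. Of the 196 genes printed 87 had other such probes, and for 79 of these every other probe had the same sign. Some gave values near 0, as for Cct3 (-0.02), Cdk1 (-0.26), Ngfr (0.09), Onecut1 (0.28), Spred1 (0.12) and Hgf (0.007 to 0.16). Far smaller values than at the brightest probe were also found for Nip7 (-0.29), Slc7a1 (-0.29), Car12 (-0.35) and Abcc3 (0.48), among others. The other probes of Slc27a2 gave -0.08 and 1.07. Values close to the brightest probe were found for other genes, as for Apoc3 (4.01) and Alas1 (2.82). Gene names came from RefSeq accessions, symbols or synonyms for all but 8475 probes.

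A linear model with 1 coefficient per group over all 34 arrays, with empirical Bayes variances and Benjamini-Hochberg adjustment over 22261 genes at 0.05, tested livers off c-Myc minus tumors. Adjusted p-values in the text are from this limma fit. Differences are on the log2 scale, and the error given is the SE. The scripts were tested on simulated data. Promoter sequences are from RefSeq on GRCm38.p6.

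Members and gene lists were chosen with earlier results of these data known. The genes named are Myc, the 10 largest non-overlapping rises and falls, all isozyme pairs and up to 4 members with the smallest p in each list, and not all of these are reported here. A further 37 of 196 printed genes were chosen after their values were seen, for their role. Replicate numbers were not used to pair samples in the main fit.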

Additional observations from a re-analysis of the deposited data

Results flagged for a closer look

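Single tumors stood apart from the other 6 for 19 of the 196 genes printed, by Dixon's test at its 95% critical value. Chance gives such a gap in about 1 in 20 groups. The array labelled tumor 5 stood apart for 13 genes. It was the low tumor for the cell division genes Mcm6 (0.124), Mki67 (0.849), Cdk1 (0.478), Prc1 (0.428), Ect2 (-0.164) and Ccne1 (1.35), and for Cct3 (-0.252), Nip7 (0.632), Mrpl3 (-0.297) and Pgk1 (-0.44). It was the high tumor for Abcc3 (-1.58), Cyp26a1 (-1.76) and Sox9 (1.56). Tumor 1 stood apart for Dbp (-2.71), Slc22a7 (-1.03) and Slc25a4 (1.86). Rpl31 in tumor 2 (3.62), Plagl1 in tumor 6 (-2.38) and Sardh in tumor 7 (-2.94) were the others. In the reference channel, which the comparison uses only as a denominator, the first Myc probe gave a Cy5 signal of 8990 on the array of tumor 1, against 343.6 on the control array of the same scan day.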

How the results depend on the processing

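Of the alternatives other than single left-out arrays, all but a 2-fold minimum gave 5240 to 7893 genes past the threshold, against 7209. The 2-fold minimum gave 3236 (1519 higher and 1717 lower) because it asks for more. The lowest of these was the shared scan day alone, and the deposited matrix gave 5277. Leaving out 1 array gave 4834 to 7758 genes, 2305 to 3729 higher and 2529 to 4029 lower. The replicate block gave 5878 genes (2710 higher and 3168 lower). With each group's mean taken off, same-numbered arrays correlated at 0.104, -0.0086 and -0.0291, too few values to decide whether the numbers pair samples. Liver 1 and tumor 1 also shared a slide and a scan day. Chosen after seeing the data, the sample channel alone gave 6191 genes, normexp on all spots 6380 and leaving out slide 5 gave 7786. Also chosen then, the sex score gave 7365, leaving out tumors 1 and 5 gave 7893, and keeping outlier spots 7197. Such totals do not show which genes stayed. Of the main 7209 genes only 4434 passed with the same sign in the sample channel alone, and 306 had the opposite sign there. These counts were 5116 and 42 in the deposited matrix, and 6017 and 1 with the scanner's log ratios. Directions turned for Acaca (0.28) and Rps2 (-0.75) with the mean of the probes, for Aars (-0.081) in the sample channel alone, and for Axin2 (2.31) and S100a8 (1.75) both with scan day as a block and on the shared day alone. The cause was not tested. With the mean of the probes the list median was 0.57 against 1.09 for endothelial markers and -1.10 against -1.71 for TRiC. It was -0.20 against -0.81 for serine and one-carbon genes, and 1.61 against 1.49 for hepatocyte markers. On the shared day, 41 of the 196 genes printed no longer passed. Saturated spots and the 3 livers limit the precision.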
